A study of Mus musculus with 4 samples.

Results

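The dual-specificity phosphatases (DUSPs) described here are 10 genes, Dusp1, Dusp2, Dusp4, Dusp5, Dusp6, Dusp7, Dusp10, Dusp11, Dusp16 and Dusp22, taken by symbol from the 24087 genes of an RNA-seq table of splenic regulatory T (Treg) cells. Expression was measured as FPKM, which is fragments scaled by gene length and library total. The KO cells came from Foxp3Cre-YFPSetd2f/f mice and the CTRL cells from their Foxp3Cre-YFPSetd2f/+ littermates, all C57BL/6 and at steady state. Both genotypes were sorted as CD3+CD4+YFP+ cells and both carried the Cre-YFP allele, in which the Foxp3 locus drives Cre, so CTRL cells already carried 1 floxed Setd2 allele. Each genotype was sequenced as 2 libraries, named CTRL 1 and CTRL 2 or KO 1 and KO 2, each pooled from 2 mice, and the age of the mice was not in the labels. Setd2 encodes the enzyme that trimethylates H3K36.

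MAP kinases (ERK, JNK and p38) carry signals from the T cell receptor, costimulatory receptors and stress. They are switched on by phosphorylation of a threonine and a tyrosine in the activation loop, and the DUSPs of the MAP kinase phosphatase class remove both phosphates. Many of these phosphatase genes are themselves induced by MAP kinase signalling, so that their transcripts act as negative feedback and as a reading of recent signalling. Dusp1, Dusp2, Dusp4 and Dusp5 encode inducible nuclear enzymes, Dusp6 and Dusp7 cytoplasmic enzymes directed at ERK, and Dusp10 and Dusp16 enzymes directed at JNK and p38. Dusp11 and Dusp22 are atypical members without the MAP kinase binding domain. Dusp11 acts on phosphates of RNA, and Dusp22 limits T cell receptor signalling at the kinase Lck.

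RefSeq promoter windows on GRCm38.p6 matched 9 of the 10 genes, all but Dusp4. Of these, 3 are shown because Dusp2 was the gene that passed the test between genotypes and Dusp1 and Dusp5 were the genes whose windows held a motif of signal-induced transcription. The 250 bases before the annotated start lie at chr2:127335909-127336158 (plus strand) for Dusp2, at chr17:26508473-26508722 (minus strand) for Dusp1 and at chr19:53528895-53529144 (plus strand) for Dusp5. Each is printed in the direction of transcription, with motif matches in capitals.
Dusp2: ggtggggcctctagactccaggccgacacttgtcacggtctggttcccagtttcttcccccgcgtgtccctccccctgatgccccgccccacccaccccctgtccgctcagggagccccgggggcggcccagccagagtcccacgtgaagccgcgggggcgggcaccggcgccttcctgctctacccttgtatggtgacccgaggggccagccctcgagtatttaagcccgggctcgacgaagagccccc
Dusp1: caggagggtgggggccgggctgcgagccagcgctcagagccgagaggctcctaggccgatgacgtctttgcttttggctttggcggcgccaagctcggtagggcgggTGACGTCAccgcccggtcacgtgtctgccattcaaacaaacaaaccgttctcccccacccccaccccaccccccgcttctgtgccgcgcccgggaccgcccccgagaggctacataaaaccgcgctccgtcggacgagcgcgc
Dusp5: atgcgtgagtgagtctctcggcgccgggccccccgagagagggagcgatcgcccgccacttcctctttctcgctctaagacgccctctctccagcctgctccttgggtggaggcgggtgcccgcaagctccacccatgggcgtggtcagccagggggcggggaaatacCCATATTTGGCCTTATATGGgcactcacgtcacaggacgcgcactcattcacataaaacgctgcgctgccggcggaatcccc

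The capitals in Dusp1 mark TGACGTCA, the palindromic cyclic AMP response element that CREB and ATF proteins bind, at 143 to 136 bases before the start. The capitals in Dusp5 mark a pair of adjoining CArG boxes, the element bound by serum response factor, at 82 to 73 and 72 to 63 bases before the start. Whole windows of 300 bases, which run on to 50 bases after the start, were searched on both strands. TGACGTCA stood in 1.79% of 32851 windows of all genes, and in 1 of 9 windows of the DUSP genes. A CArG box stood in 1.63% of all windows and likewise in 1 of 9. TGAGTCA (bound by AP-1, 5.2% of all windows), CCGGAAGT (bound by ETS factors, 3.89%) and TATAAA (13.6%) were found in 0 of the 9 windows. None of the motifs searched stood in the Dusp2 window. A match is a run of letters and not a measured binding site, and no data on binding were used here.

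All 10 genes were expressed in every library, from 1.32 FPKM for Dusp16 in CTRL 2 to 416 FPKM for Dusp1 in KO 1. Dusp1 had the highest level, with 377 and 410 FPKM in the CTRL and 416 and 364 FPKM in the KO libraries. Dusp2 and Dusp5 came next, with 4-library means of 189.5 and 188.9 FPKM and overlapping ranges, so their order was not resolved. Dusp4 (68.9 FPKM), Dusp10 (51.0 FPKM) and Dusp11 (44.5 FPKM) followed, with each range overlapping its neighbour. Below them each gene lay apart from the next, in the order Dusp6 (23.7 FPKM), Dusp7 (9.16 to 13.7 FPKM over the libraries), Dusp22 (2.08 FPKM) and Dusp16 (1.47 FPKM). Comparisons of level between genes rest on the gene lengths the authors used, which were not given in the sources used here.

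**Figure D1:**
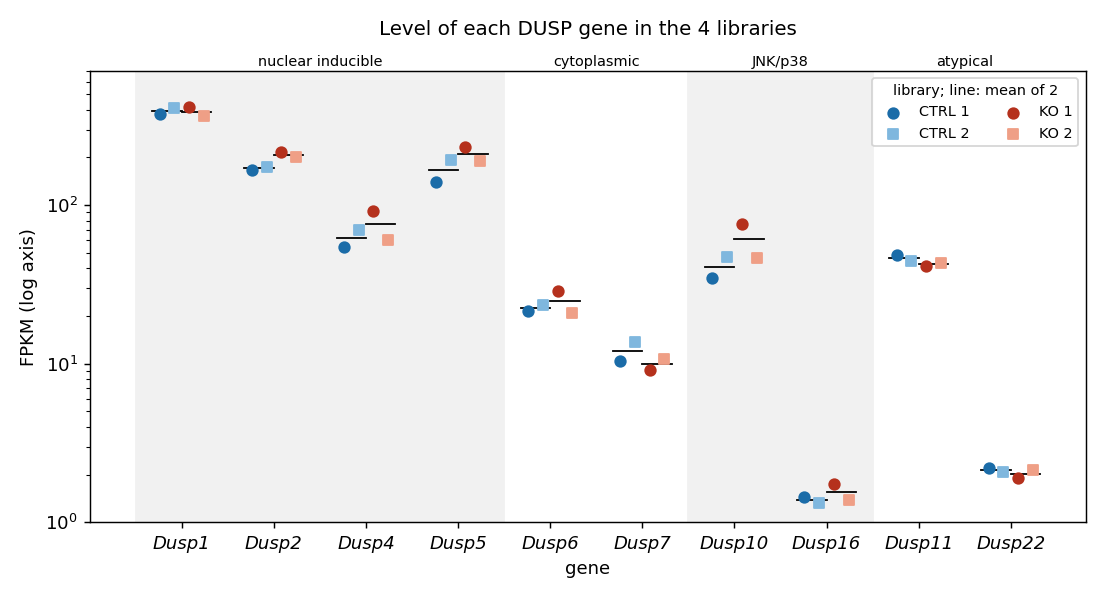
FPKM of the 10 DUSP genes on a log axis, grouped by role, with 1 point per library and a short line at the mean of the 2 libraries of a genotype. Dusp1 lies highest in all 4 libraries, the points of Dusp2 separate by genotype, and KO 1 lies above the other 3 libraries in 7 of the 10 genes.

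The 4 nuclear enzymes made up most of the DUSP transcripts in either genotype. Their share of the summed FPKM of the 10 genes was 86.2% and 86.5% in the CTRL libraries and 85.8% and 86.7% in the KO libraries. The sum over the 10 genes was 858 and 976 FPKM in CTRL and 1116 and 940 FPKM in KO, and KO 2 lay between the CTRL libraries, so the genotypes overlapped. The share of Dusp1 in that sum was 43.9% and 42.0% in CTRL and 37.3% and 38.7% in KO. The ratio of Dusp1 to Dusp2 was 2.25 and 2.37 in CTRL and 1.93 and 1.80 in KO. These shares and ratios were looked at after the values of the genes had been seen and carry no test.

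The libraries held at least 30574662 to 33183060 reads each, recovered from the steps of the FPKM values as a lower bound. CTRL 1 stood apart in that 19100 genes were above 0, against 15913 to 16410 in the other 3 libraries, at a relative depth of 1.000 against 1.056 to 1.081. Values of the DUSP genes rested on at least 185 to 28518 reads per library. The targeted gene Setd2 had 23.4 and 25.3 FPKM in CTRL and 21.3 and 19.5 FPKM in KO (log2 fold change -0.24, SE 0.076, limma adjusted p = 0.097), a level over the whole gene that does not resolve the floxed exons. The 8 Treg and T cell markers summed to 1787 and 1901 FPKM in CTRL and 1870 and 1819 FPKM in KO, and 0 of 8 passed the test. The sum does not speak for each marker. Il2ra had 123 and 148 FPKM in CTRL and 95.4 and 117 FPKM in KO (limma adjusted p = 0.138). Ikzf2 had 74.9 and 74.2 FPKM in CTRL and 81.6 and 87.05 FPKM in KO (limma adjusted p = 0.106). Both were named after their values were seen. In pooled cells, a change in the share of cells that express a gene and a change in RNA per cell cannot be told apart.

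KO was compared with CTRL by limma on log2(FPKM + 1) over 11399 genes, with adjusted p under 0.05 as the threshold. All 10 DUSP genes had at least 1 FPKM in all 4 libraries and were tested. Of them, 1 was higher in KO, where 5.10% of all genes tested were, and 0 were lower, where 4.65% of all genes tested were. At unadjusted p under 0.05, again 1 was higher and 0 lower, against 16.3% and 18.4% of all genes. Limma-voom on the recovered reads also gave 1 higher and 0 lower, with 1887 of the 11399 genes called in either direction. The KO libraries both lay on one side of both CTRL libraries in 2 of the 10 genes, Dusp2 and Dusp11, whereas this held for 64.5% of all genes tested. The median log2 fold change of the 10 genes was 0.11, against -0.022 over all genes, with 6 above and 4 below 0.

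**Figure D2:**
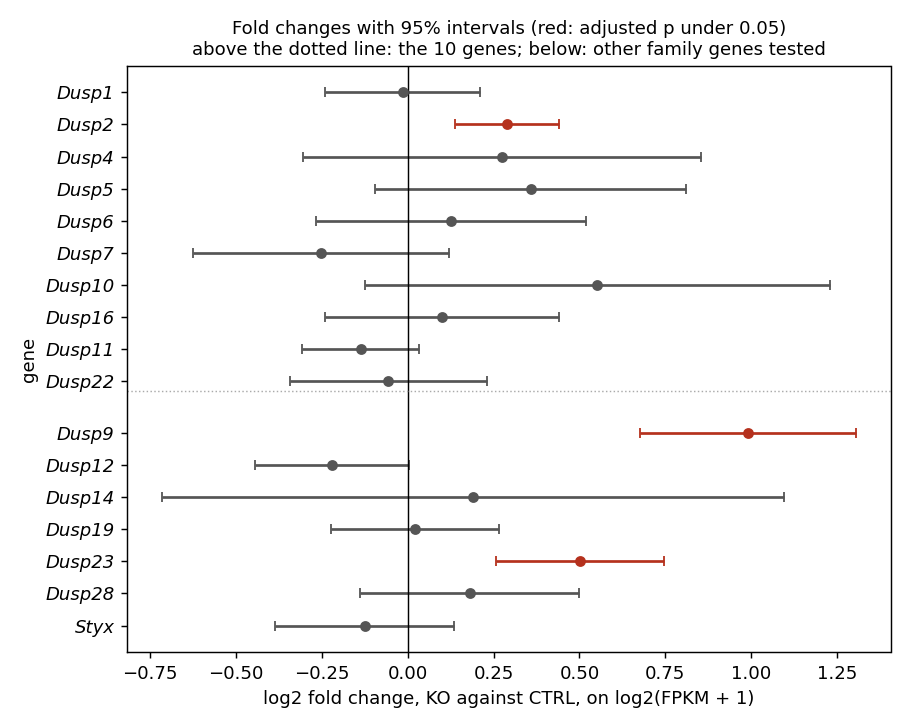
Log2 fold change of KO against CTRL on log2(FPKM + 1) with its 95% interval, for the 10 DUSP genes above the dotted line and for the 7 other family genes tested below it. The interval of Dusp2 runs from 0.14 to 0.44, the intervals of the other 9 genes include 0, and that of Dusp10 is the widest of the 10.

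Dusp2, a nuclear phosphatase of ERK first known from activated lymphocytes, was the DUSP gene that rose in KO Treg cells. It had 168 and 173 FPKM in the CTRL libraries and 215 and 202 FPKM in the KO libraries. Both KO libraries were above both CTRL libraries, and the gap between genotypes was larger than that within either. The CTRL libraries averaged 170 ± 3.73 FPKM (SD, n = 2), and the KO libraries, at 209 ± 9.34 FPKM (SD, n = 2), averaged 1.22 times as much. Its log2 fold change was 0.29 (SE 0.059, 95% interval 0.14 to 0.44, limma adjusted p = 0.0476). The gene lies at chr2:127336159-127338376 on the plus strand of GRCm38 (GENCODE vM21), has 4 exons and overlaps no other gene of that annotation.

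The adjusted p of Dusp2 stood just inside the threshold. It was 0.1004 with no filter on low genes, 0.124 after quantile normalization and 0.077 with no variance trend, and it was 0.164 when CTRL 1 was left out, 0.153 for CTRL 2, 0.156 for KO 1 and 0.115 for KO 2, while its log2 fold change was 0.24 to 0.33 in all of these but quantile normalization. Calls were lost across all genes with no filter, where 0 passed, and with a library left out, so the losses under these settings are not specific to Dusp2. After quantile normalization the log2 fold change of Dusp2 was 0.17, and 1003 of all genes passed. With no variance trend 679 of all genes passed. Many genes thus kept the threshold under the last 2 settings, where Dusp2 lost it. Markers of effector and resting cells are given beside Dusp2. The 6 effector Treg markers summed to 415 and 366 FPKM in CTRL and 538 and 538 FPKM in KO, with 1 of 6 past the test, the costimulatory receptor gene Icos (91.0 and 80.3 against 130 and 136 FPKM, log2 fold change 0.63, limma adjusted p = 0.0346). The list did not move as one, since the activation marker Cd44, named after its values were seen, had 33.0 and 33.3 FPKM in CTRL and 30.4 and 27.8 FPKM in KO (log2 fold change -0.18, limma adjusted p = 0.126). The 6 markers of resting T cells summed to 839 and 875 FPKM in CTRL and 764 and 712 FPKM in KO, and 2 of 6 fell, among them the interleukin-7 receptor gene Il7r (log2 fold change -0.35, limma adjusted p = 0.0421). This list did not move as one either. Lef1, named after its values were seen, had a log2 fold change of 0.07 (limma adjusted p = 0.564), while the rest were below 0. Of all genes tested, 5.10% rose and 4.65% fell. The part of these populations in the Dusp2 difference was not tested.

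Dusp1 encodes a nuclear phosphatase of p38, JNK and ERK that is induced within minutes of many stimuli. Its 4 values, 377 and 410 FPKM in CTRL and 416 and 364 FPKM in KO, interleaved, with both KO libraries at the ends of the range. The log2 fold change was -0.01 (SE 0.088, 95% interval -0.24 to 0.21, limma adjusted p = 0.921). It was 0.0040 under median-ratio scaling, 0.045 without CTRL 2 and 0.082 without KO 2. In GENCODE vM21 the gene has transcripts that stretch over 56.5 kb of chromosome 17, against 2.88 kb in RefSeq, and an exon that overlaps one of Ergic1 in the opposite orientation. The strand setting of the counting was not given in the sources used here, and without strand, reads of the overlap cannot be told apart.

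Dusp5, an inducible nuclear phosphatase that acts on ERK alone among the MAP kinases, had 141 and 192 FPKM in CTRL and 234 and 189 FPKM in KO. CTRL 1 was the lowest library and KO 1 the highest, while CTRL 2 and KO 2 lay close together. The log2 fold change was 0.36 (SE 0.18, 95% interval -0.09 to 0.81, limma adjusted p = 0.219). Dusp4, a nuclear phosphatase of ERK and JNK, had 54.1 and 69.6 FPKM in CTRL and 91.9 and 60.2 FPKM in KO. CTRL 1 was again lowest and KO 1 highest, but KO 2 lay below CTRL 2. Its log2 fold change was 0.27 (SE 0.23, 95% interval -0.31 to 0.85, limma adjusted p = 0.437). Without KO 1 it was -0.027. Dusp4 lies on chromosome 8 and Dusp5 on chromosome 19, each with 4 exons.

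Dusp6 encodes the cytoplasmic phosphatase through which ERK signalling limits itself in many tissues. Its values were 21.4 and 23.5 FPKM in CTRL and 28.8 and 21.0 FPKM in KO. The KO libraries lay on either side of the CTRL libraries, and the log2 fold change was 0.13 (SE 0.15, 95% interval -0.27 to 0.52, limma adjusted p = 0.605). Without KO 1 it was -0.092. Dusp7, its close relative, had 10.5 and 13.7 FPKM in CTRL and 9.16 and 10.7 FPKM in KO. Here CTRL 2 was the highest library and KO 1 the lowest, unlike in Dusp4, Dusp5 and Dusp6. The log2 fold change of Dusp7 was -0.25 (SE 0.15, 95% interval -0.63 to 0.12, limma adjusted p = 0.277). The ratio of Dusp6 to Dusp7 was 2.05 and 1.72 in CTRL, 3.14 in KO 1 and 1.97 in KO 2, so the high ratio belonged to a single library.

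Dusp10, which restrains JNK and p38 in T cells, had the largest fold change of the 10 genes and the least agreement between its libraries. Its values were 34.6 and 46.8 FPKM in CTRL and 76.1 and 46.4 FPKM in KO. KO 1 stood far above the rest, CTRL 1 below, and KO 2 was just under CTRL 2. The log2 fold change was 0.55 (SE 0.26, 95% interval -0.12 to 1.23, limma adjusted p = 0.208), and 0.20 without KO 1 and 0.34 without CTRL 1. Dusp16, which acts mainly on JNK, had the lowest level of the 10 genes, with 1.45 and 1.32 FPKM in CTRL and 1.74 and 1.38 FPKM in KO. The genotypes overlapped, with a log2 fold change of 0.10 (SE 0.13, 95% interval -0.24 to 0.44, limma adjusted p = 0.635). In the same cells Dusp10 was 23.8 to 43.7 times as high as Dusp16 in FPKM.

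Of the atypical members, Dusp11 had 48.6 and 44.7 FPKM in CTRL and 41.4 and 43.2 FPKM in KO. Both KO libraries were below both CTRL libraries, but CTRL 2 lay closer to KO 2 than to CTRL 1. The log2 fold change was -0.14 (SE 0.067, 95% interval -0.31 to 0.03, limma adjusted p = 0.213), which did not pass the test. Dusp22 had 2.203 and 2.08 FPKM in CTRL and 1.89 and 2.15 FPKM in KO. Its libraries interleaved, with a log2 fold change of -0.06 (SE 0.11, 95% interval -0.34 to 0.23, limma adjusted p = 0.759). Dusp11 and Dusp16 lie on chromosome 6, Dusp10 on chromosome 1, Dusp6 on chromosome 10, Dusp7 on chromosome 9 and Dusp22 on chromosome 13.

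Spread between libraries of 1 genotype was wide in several of the DUSP genes. The SE of the fold change was above the median of all genes (0.087) in 8 of the 10, with a median of 0.14. Limma moderates this SE toward a trend over all genes, so it is not the spread of the gene alone. Dusp22 was among the 8, though 67.1% of all genes reached the gap between its CTRL libraries and 38.4% that between its KO libraries. KO 1 was the highest library in 7 of the 10 genes, against 22.8% of all genes tested. KO 1 exceeded KO 2 by 0.70 on the log2 scale in Dusp10 (1.64 times in FPKM), a gap that 2.59% of all genes reached in size. In Dusp4 the gap was 0.60 (1.53 times), reached by 3.35% of genes, and in Dusp6 it was 0.44 (1.37 times), reached by 5.96%. The median gap between KO libraries was 0.20 over the 10 genes and 0.091 over all genes. Between CTRL libraries it was 0.12 over the 10 genes and 0.095 over all genes.

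CTRL 1 was the lowest library in 4 of the 10 genes (Dusp2, Dusp4, Dusp5 and Dusp10), against 22.2% of all genes tested. CTRL 2 exceeded CTRL 1 by 0.44 on the log2 scale in Dusp5, by 0.43 in Dusp10, by 0.36 in Dusp7 and by 0.36 in Dusp4, gaps that 4.68% to 6.90% of all genes reached. Without KO 1 the log2 fold changes of Dusp5 and Dusp10 were 0.21 and 0.20, that of Dusp2 was 0.24 and those of the other 7 genes lay between -0.15 and 0.0051. Against the fold changes with all libraries, Dusp4, Dusp6 and Dusp16 turned from above to below 0, Dusp22 from below to above 0, and that of Dusp10 fell from 0.55 to 0.20.

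**Figure D3:**
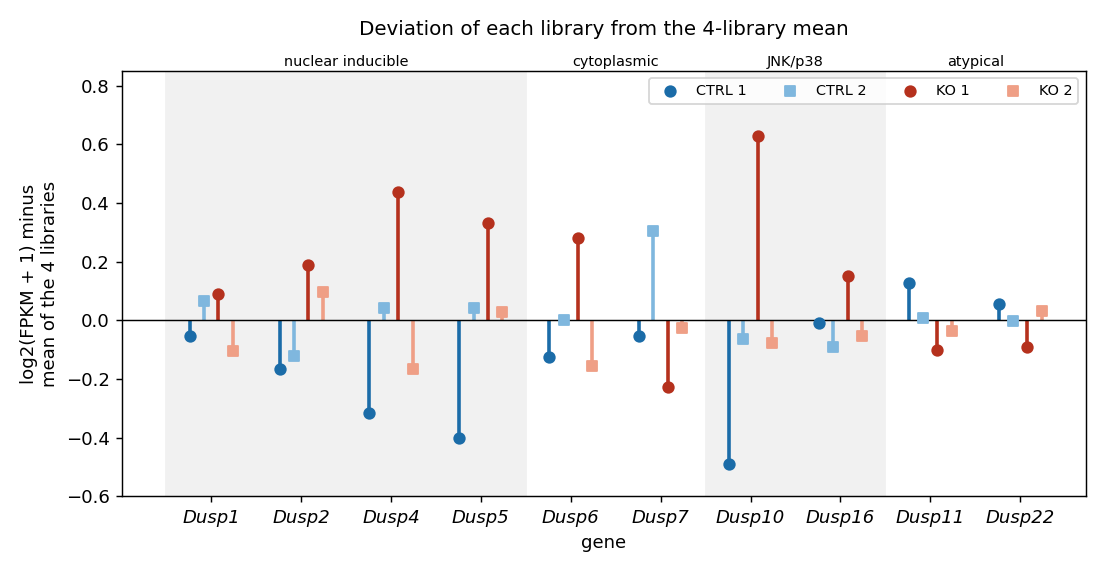
Deviation of each library from the mean of the 4 libraries, in log2(FPKM + 1), for the 10 DUSP genes. Bars of KO 1 reach highest in Dusp4, Dusp5, Dusp6 and Dusp10, bars of CTRL 1 reach lowest in Dusp4, Dusp5 and Dusp10, and in Dusp2 both KO libraries lie above 0 and both CTRL libraries below.

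Other lists are given here by library. The 19 early-response genes are induced within an hour by signals that also induce many of the DUSP genes. Of them, 13 were highest in KO 1 and 9 lowest in CTRL 1, against 22.8% and 22.2% of all genes tested. The 19 genes summed to 4028 and 4746 FPKM in CTRL and 4989 and 4223 FPKM in KO. This put the libraries in the same order as the sum of the DUSP genes, from CTRL 1 over KO 2 and CTRL 2 to KO 1. Junb, the largest part of the early-response sum, had 1526 and 1985 FPKM in CTRL and 2178 and 1628 FPKM in KO. Not all genes of the list followed this order, since Fos, Fosb, Jun and Ier5 were highest in CTRL 2 and lowest in KO 2. Junb, Fosb, Jun and Ier5 were named after their values were seen. The 6 heat shock genes, which respond to cell handling, summed to 860 and 857 FPKM in CTRL and 1060 and 976 FPKM in KO, with 0 of 6 past the test. Both KO sums lay above both CTRL sums, as in Dusp2, and were mostly the constitutive chaperone gene Hspa8 (664 and 664 against 840 and 774 FPKM, limma adjusted p = 0.0591), whereas the stress-inducible Hspa1b had 6.59 and 3.95 FPKM in CTRL and 2.77 and 2.39 FPKM in KO (limma adjusted p = 0.0793). Both were named after their values were seen. The 4 B cell markers summed to 21.6 and 18.3 FPKM in CTRL and 31.3 and 18.3 FPKM in KO, the 5 myeloid markers to 198 and 126 FPKM in CTRL and 235 and 100 FPKM in KO, the 2 CD8 markers to 8.49 and 11.4 FPKM in CTRL and 10.6 and 11.4 FPKM in KO. The CD8 sum was mostly Cd8b1. Cd8a, below the filter and named after its values were seen, had 0.156 and 0.194 FPKM in CTRL and 0.326 and 0.216 FPKM in KO. The erythroid markers, 3 of 4 of which were in the table, summed to 21.3 and 3.65 FPKM in CTRL and 37.1 and 10.8 FPKM in KO. The myeloid sum was mostly Lyz2, the lysozyme gene, with 114 and 72.0 FPKM in CTRL and 153 and 60.0 FPKM in KO, whereas Foxp3, the gene that defines Treg cells, had 121 and 140 FPKM in CTRL and 112 and 119 FPKM in KO, so that Lyz2 lay above Foxp3 in KO 1. None of these markers was at 0 in all libraries, 0 of them passed the test, and KO 1 had the highest sum for B, myeloid and erythroid markers. CTRL 1, the lowest library in Dusp2, Dusp4, Dusp5 and Dusp10, came next in these sums. Of the tested markers, KO 1 was highest in 4 of 4 B, 2 of 2 erythroid and 1 of 5 myeloid markers. The myeloid markers Csf1r, Cd68, Itgam and Adgre1, named after their values were seen, were highest in CTRL 1. The part of these markers in the KO 1 values of the DUSP genes was not tested.

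Beyond the 10 genes, 17 other genes of the DUSP and STYX family were in the table, and 7 of them passed the filter. Of these 7, 2 rose in KO and 0 fell, where 5.10% and 4.65% of all genes tested did. Since Dusp9, 1 of the 2, reached the filter only in the KO libraries, in which it was high, the count over the tested genes supports no direction. Dusp9, a cytoplasmic phosphatase of ERK and a relative of Dusp6 and Dusp7, had 0.474 and 0.481 FPKM in CTRL and 1.93 and 1.94 FPKM in KO, on at least 42 and 45 reads against 184 and 186. The libraries of a genotype differed little, and its log2 fold change was 0.99 (SE 0.12, limma adjusted p = 0.0346). That p is not taken as support for a rise, because Dusp9 entered the test only through its KO libraries. In FPKM, where no pseudocount is added, the KO mean was 4.05 times the CTRL mean. Dusp23, a small atypical phosphatase, had 3.21 and 3.63 FPKM in CTRL and 5.22 and 5.27 FPKM in KO, with a log2 fold change of 0.50 (SE 0.095, limma adjusted p = 0.0430).

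The other 5 family genes tested, Dusp12, Dusp14, Dusp19, Dusp28 and Styx, did not pass the test, with log2 fold changes between -0.22 and 0.19. Dusp14 had 4.42 and 5.08 FPKM in CTRL, 8.52 FPKM in KO 1 and 3.50 FPKM in KO 2, so the KO libraries were the highest and the lowest. Dusp8, a phosphatase of JNK and p38, was below the filter and not tested. It had 0.089 and 0.072 FPKM in CTRL and 1.12 and 0.275 FPKM in KO, on at least 14 and 12 reads against 190 and 47, so both KO libraries were above both CTRL libraries and differed widely between themselves. Dusp13 and Dusp21 were listed at 0 in all 4 libraries.

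The 4 MAP kinase genes given here did not pass the test. Mapk3 (ERK1) had 32.8 and 34.4 FPKM in CTRL and 37.99 and 41.7 FPKM in KO, which did not overlap, and a log2 fold change of 0.24 (SE 0.070, limma adjusted p = 0.0855). Mapk14 (p38 alpha) had 44.4 and 43.0 FPKM in CTRL and 38.5 and 36.8 FPKM in KO, with a log2 fold change of -0.21 (SE 0.058, limma adjusted p = 0.0765). The JNK genes Mapk8 and Mapk9 had log2 fold changes of 0.12 and -0.10 (limma adjusted p = 0.339 and 0.336).

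Of 18 ERK pathway kinases and adaptors, 2 rose, 0 fell and 16 did not pass the test. Of all genes tested, 5.10% rose and 4.65% fell. Hras, a small GTPase upstream of RAF, had 11.3 and 12.0 FPKM in CTRL and 14.8 and 15.3 FPKM in KO (log2 fold change 0.35, SE 0.069, limma adjusted p = 0.0462). Ksr1, a scaffold that holds RAF, MEK and ERK together, had 11.9 and 12.8 FPKM in CTRL and 18.4 and 16.6 FPKM in KO (log2 fold change 0.47, SE 0.082, limma adjusted p = 0.0405). Of 16 tested genes of the JNK and p38 pathway, 1 rose and 1 fell, against the same shares of all genes. Map2k3, a kinase that activates p38, had 29.7 and 29.5 FPKM in CTRL and 44.1 and 38.4 FPKM in KO (log2 fold change 0.46, SE 0.081, limma adjusted p = 0.0405). Mapk12, which encodes p38 gamma, had 4.39 and 3.50 FPKM in CTRL and 1.84 and 1.96 FPKM in KO (log2 fold change -0.76, SE 0.13, limma adjusted p = 0.0386). The medians of both lists, -0.05 and -0.06, lay close to that of all genes.

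Of 10 other brakes on the ERK pathway tested, 1 rose and 2 fell, where 5.10% and 4.65% of all genes tested did. Their median log2 fold change was 0.04. Dok1, an adaptor that recruits RAS-inactivating proteins, had 18.7 and 18.7 FPKM in CTRL and 25.2 and 25.8 FPKM in KO (log2 fold change 0.43, SE 0.058, limma adjusted p = 0.0351). Spry1, an inducible inhibitor of receptor signalling to RAS, had 16.9 and 18.8 FPKM in CTRL and 12.7 and 12.6 FPKM in KO (log2 fold change -0.47, SE 0.077, limma adjusted p = 0.0382). Rasa1, a GTPase-activating protein of RAS, had 44.2 and 42.2 FPKM in CTRL and 33.1 and 32.5 FPKM in KO (log2 fold change -0.39, SE 0.057, limma adjusted p = 0.0351). In Dok1 and Rasa1 the libraries of a genotype lay close together, and in Spry1 the KO libraries did. The CTRL libraries of Spry1 differed by 0.15 on the log2 scale, a gap that 31.4% of all genes reached.

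**Figure D4:**
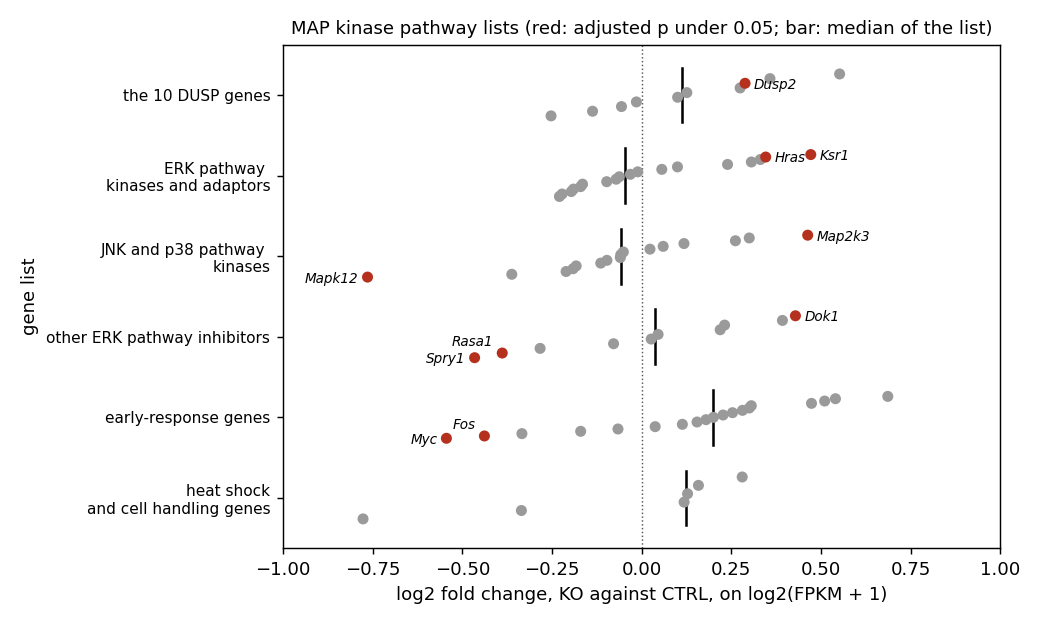
Log2 fold change of KO against CTRL on log2(FPKM + 1) for the 10 DUSP genes and for the tested genes of 5 lists, with 1 point per gene, red for adjusted p under 0.05 and a bar at the median. Genes past the test lie on both sides of 0. Of 19 early-response genes 2 passed below 0, where 4.65% of all genes tested did, and the median of that list is 0.20.

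Among the 19 early-response genes 0 rose and 2 fell, Fos and Myc, where 5.10% and 4.65% of all genes tested did. The median log2 fold change of the list was 0.20. Fos, a subunit of AP-1, had 277 and 287 FPKM in CTRL and 209 and 206 FPKM in KO (log2 fold change -0.44, SE 0.053, limma adjusted p = 0.0346). Myc, a regulator of growth, had 65.4 and 64.9 FPKM in CTRL and 41.3 and 47.6 FPKM in KO (log2 fold change -0.54, SE 0.082, limma adjusted p = 0.0355). Both fell in KO in the cells in which Dusp2 rose and in which Dusp1 did not pass the test. When any of the 4 libraries was left out, 0 of the 11 genes called in these lists and in the other DUSP genes passed the threshold, as did 0 to 1 of all genes tested, so the loss is not a property of these genes. Dusp9 did not reach the filter with KO 1 or with KO 2 left out and was not tested there.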

How the data were processed

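Poly(A) RNA, enriched with oligo(dT), was sequenced in pairs of 150 bp reads. Reads were mapped by the authors to mm10 (GRCm38) with HISAT2 2.2.1 and counted per gene with featureCounts 2.0.1, and the deposited values were FPKM made by the authors for 24087 genes. The annotation version, gene lengths, use of strand and treatment of multi-mapped reads were not given in the sources used here. The authors tested counts with edgeR 3.34.0. Columns named WT and a number were read as the CTRL libraries with that number.

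KO was compared with CTRL by limma 3.58.1 (R 4.3.3; lmFit, eBayes with trend) on log2(FPKM + 1), for the 11399 genes that reached 1 FPKM in 2 or more libraries. The test was two-sided, with Benjamini-Hochberg adjustment over all of them. Fold changes on this scale understate changes of low genes. Whole reads were recovered from the FPKM steps (tolerance 0.002, all of 19888 genes above 0) and serve as lower bounds and for limma-voom. The procedure was tested on simulated data. Libraries of a genotype were pools of different mice. The p-value sets the difference between genotypes against the spread between such pools within both genotypes. Limma moderates that spread toward a trend over all genes tested, so part of it is drawn from other genes.

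The 10 genes, the pathway and marker lists and the tests were chosen with earlier results of these data known. By rule, all 10 genes are named, and of the other lists each gene past the threshold (at most 6 per list), with Mapk3, Mapk8, Mapk9, Mapk14 and Setd2. Dusp12, Dusp14, Dusp19, Dusp28 and Styx were named after their values were seen. Positions are from GENCODE vM21 and promoters from RefSeq. Proteins were not analysed here. A gene of the rule and a marker are not reported singly here but remain in the counts. Python 3.11.15, numpy 2.4.6, pandas 2.3.3 and matplotlib 3.10.9 were used.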

Additional observations from a re-analysis of the deposited data

How the results depend on the processing

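The comparison was repeated with a pseudocount of 0.1, with no filter, with only genes averaging over 5 FPKM in a genotype, with median-ratio scaling, quantile normalization, no variance trend, robust eBayes, limma-voom on the recovered reads and the replicate number as a block, and with each library left out, where the lone library of a genotype is assumed to vary like the pair of the other. The count of DUSP genes higher in KO, 1 in the reported comparison, was 0 with no filter, 0 after quantile normalization, 0 with no variance trend and 0 without any 1 of the libraries (range 0 to 0), and the count lower in KO was 0 under every setting. Genes called among all tested, 1111 in the reported comparison, numbered 0 with no filter, 679 with no variance trend, 1887 with limma-voom and 0 to 1 with a library left out. Genes called in the pathway lists and other DUSP genes, 11 in the reported comparison, numbered 0 with no filter, 7 with no variance trend and 0 to 0 with a library left out. Over 26 named genes and 9 settings with all libraries, 210 of the values kept their direction and side of the threshold, 19 lost the threshold and 1 turned, with a log2 fold change of 0.0040 for Dusp1 under median-ratio scaling. With a library left out, log2 fold changes spanned 0 in Dusp1 (-0.11 to 0.082), Dusp4 (-0.027 to 0.58), Dusp6 (-0.092 to 0.34), Dusp16 (-0.0015 to 0.20) and Dusp22 (-0.12 to 0.0051). No filter tests 19888 genes in place of 11399. The cause of the losses, with no filter or under the other settings, was not tested.

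The replicate numbers of the labels were not stated to pair the libraries, and across genes the deviations from the genotype mean correlated between libraries of 1 number with Pearson's r of 0.342 and Spearman's rho of 0.055, over only 2 pairs. With the replicate block, 1773 genes were called among all tested, 17 in the pathway lists and other DUSP genes, and 1 DUSP gene was higher in KO (Dusp2, limma adjusted p = 0.0393).

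With 2 libraries per genotype, intervals of the DUSP fold changes were wide, up to -0.12 to 1.23 for Dusp10, and a DUSP gene that missed the threshold is not shown to be equal between genotypes. The part of counting error was not tested. It bears most on Dusp22 and Dusp16, with at least 185 to 211 and 233 to 314 reads per library.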
